A study of Mus musculus with 14 samples.

Results

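The 38 genes described here act in G2 phase and mitosis, the stretch of the cell cycle between the end of DNA replication and the separation of the daughter cells. They were taken by name from a table of 21205 genes, and all 38 were in it. They were followed in 555 single cells from a sort for conventional dendritic cells of type 1 (cDC1), the dendritic cells that carry the chemokine receptor XCR1 and present antigen to CD8+ T cells. The cells came from tumours of the mouse melanoma line YUMM1.7, each grown in the flank of 1 female mouse, and each tumour filled 1 plate. Transcripts were counted by unique molecular identifiers (UMIs), short random tags that mark single RNA molecules, at the 5′ end of the RNA. The genotypes were Irf1_dXCR1 (5 plates, 223 cells, mice of 6 weeks), Irf1_FF (4 plates, 165 cells, 6 weeks), Ikbkb_dXCR1 (4 plates, 133 cells) and Ikbkb_FF (1 plate, 34 cells, 8 weeks). The mice of Ikbkb_dXCR1 plates 1 and 2 were 8 weeks old, and those of plates 3 and 4 were 6 weeks old. The design text of the series names the FF groups as controls. The labels do not spell out the suffixes, which are the usual notation for floxed alleles (FF) and for their removal by a Cre under the control of Xcr1 (dXCR1), so that the alleles would be lost in Xcr1-expressing cells and not in the tumour. IRF1, the product of Irf1, is a transcription factor induced by interferons, while Ikbkb encodes IKKβ, a kinase that turns on NF-κB.

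Entry into mitosis is driven by the kinase CDK1 bound to A- and B-type cyclins. Mitotic kinases then organise the spindle, the spindle checkpoint holds anaphase back until every kinetochore is attached, and the anaphase-promoting complex marks the B-type cyclins for destruction. Most of these genes are transcribed only when a cell approaches division, so a cell with transcripts of many of them is usually read as a dividing cell. Dendritic cells divide as precursors and, less often, in tissue, and are known to leave the cycle as they mature and gain CCR7, the receptor that guides them to lymph nodes.

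The promoters of such genes are known for 2 short elements, the cell cycle genes homology region (CHR, searched as TTTGAA) and the CCAAT box (searched as CCAAT), each looked for on both strands. In the RefSeq table for GRCm38.p6, 31 of the 38 genes had a promoter, taken as 250 bases before to 50 bases after the start of transcription. There was no entry for Ccna2, Tpx2, Aurkb, Ska1, Stmn1, Kif20a and Smc4. The CHR letters were in 24 of the 31 (77.4%), against 20.2% of the 27025 genes in the table. The CCAAT letters were in 25 of the 31 (80.7%), against 41.1% of all genes, and 21 of the 31 (67.7%) held both, against 7.97% of all genes. A CHR lay within 50 bases of the start in 22 of the 31 (71.0%), against 5.72% of all genes. The 2 motifs shared a base in 1 of the 34 promoters of these genes. A match is a match of letters and not a site shown to be bound. The promoters of 5 genes whose transcripts are followed below are printed 5′ to 3′ on the strand of the gene, from 250 bases before to 30 bases after the start, with both motifs in capitals, to show promoters with both, with 1 and with neither:
Cdk1: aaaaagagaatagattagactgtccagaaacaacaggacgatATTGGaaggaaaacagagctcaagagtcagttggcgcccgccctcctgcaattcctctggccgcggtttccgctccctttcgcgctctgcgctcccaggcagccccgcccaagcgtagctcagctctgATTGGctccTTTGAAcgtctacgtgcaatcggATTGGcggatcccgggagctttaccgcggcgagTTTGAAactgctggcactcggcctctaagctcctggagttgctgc
Ccnb2: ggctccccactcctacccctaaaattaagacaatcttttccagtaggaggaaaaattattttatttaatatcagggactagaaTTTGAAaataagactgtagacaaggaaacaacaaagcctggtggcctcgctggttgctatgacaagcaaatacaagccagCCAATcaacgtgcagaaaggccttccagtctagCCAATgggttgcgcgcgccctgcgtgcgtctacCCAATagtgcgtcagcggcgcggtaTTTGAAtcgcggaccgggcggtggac
Top2a: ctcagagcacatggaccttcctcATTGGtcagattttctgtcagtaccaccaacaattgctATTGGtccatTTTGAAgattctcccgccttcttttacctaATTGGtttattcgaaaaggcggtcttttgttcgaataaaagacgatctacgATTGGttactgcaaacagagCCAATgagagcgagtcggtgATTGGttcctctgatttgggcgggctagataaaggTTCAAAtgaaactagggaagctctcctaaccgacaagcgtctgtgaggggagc
Ccnb1: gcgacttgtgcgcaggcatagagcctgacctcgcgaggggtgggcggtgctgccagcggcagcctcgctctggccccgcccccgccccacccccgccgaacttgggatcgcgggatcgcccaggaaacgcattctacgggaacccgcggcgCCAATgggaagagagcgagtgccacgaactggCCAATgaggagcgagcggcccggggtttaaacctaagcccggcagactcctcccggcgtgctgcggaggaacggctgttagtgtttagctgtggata
Birc5: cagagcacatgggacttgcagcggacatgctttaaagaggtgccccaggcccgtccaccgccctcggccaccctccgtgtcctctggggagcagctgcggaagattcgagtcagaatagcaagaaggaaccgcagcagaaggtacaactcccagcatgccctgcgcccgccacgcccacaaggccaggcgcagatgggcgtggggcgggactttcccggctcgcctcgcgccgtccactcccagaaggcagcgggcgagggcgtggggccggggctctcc
Cdk1 at chr10:69352883-69353162, Ccnb2 at chr9:70421525-70421804 and Top2a at chr11:99024160-99024439, all on the minus strand, held both motifs. Ccnb1 at chr13:100786457-100786736, also on the minus strand, held CCAAT boxes and no TTTGAA. Birc5 at chr11:117848987-117849266 on the plus strand held neither.

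Per plate there were 18 to 59 cells, 2810321 to 10120557 UMIs and a median of 705 to 2241 genes per cell. All 94 well barcodes occurred on several plates, so a cell is named by plate and well together. The median non-zero count of a gene in a cell was 64 UMIs, and 14.7% of non-zero counts were 1 or 2 UMIs. Irf1 stood at 98.2 to 337 counts per 1000000 UMIs (CPM) in the 5 Irf1_dXCR1 plates, against 200.5 to 435 CPM in the 4 Irf1_FF plates, and these ranges overlapped. Ikbkb stood at 111 to 309 CPM in Ikbkb_dXCR1 plates, against 291 CPM in the Ikbkb_FF plate. Reads from the 5′ end of a transcript do not check whether a deleted exon is absent. Fibroblast markers (at least 2 of 6, each with 10 UMIs or more) were found in 0% to 37.2% of the cells of a plate, highest in Irf1_FF plate 1.

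Transcripts of the 38 genes were concentrated in few cells. Of the 555 cells, 159 had no UMI of any of them, the median cell had 1 of the 38, and the highest cell had 36. There were 72 cells (12.97%) with 5 or more of the 38, called G2/M-rich cells here. These 72 cells held 74.9% of all UMIs of the 38 genes, while they held 21.6% of the UMIs of all genes. They were chosen by these same genes, so the high share follows in part from the choice. No other set of genes was counted in this way. The median G2/M-rich cell had 12 of the 38 genes, and 19 cells had 20 or more. Just inside the limit stood 8 cells with 5 of the genes, and just outside it 21 cells with 4.

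The number of these genes in a cell grew with the number of all genes detected in it (Pearson r = 0.44, Spearman rho = 0.55 over 555 cells, which share plates and differ in depth). With the cells ranked by genes per cell and divided into 4 equal groups, from the fewest genes to the most, 2.16%, 7.19%, 9.42% and 33.1% were G2/M-rich. The G2/M-rich cells had a median of 2532 genes, against 1484 in the other cells. By the number of the 38 found, the median was 903 genes in cells with 0, 1402 with 1, 1712 with 2, 2293 with 3 or 4, 2452 with 5 to 9, 1880 with 10 to 19 (23 cells) and 2957 with 20 or more (19 cells), so depth rose with the number in every band but that of 10 to 19. With each cell thinned to 50000 UMIs, which left out 102 shallower cells, 68 of 453 cells were G2/M-rich.

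**Figure D1:**
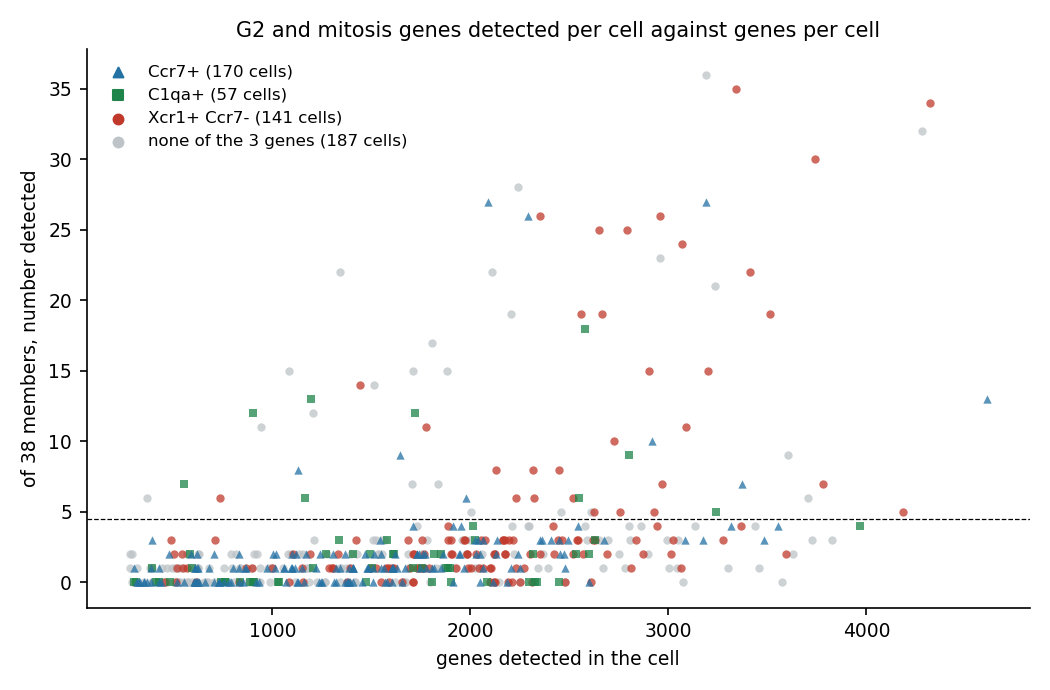
Number of the 38 G2 and mitosis genes detected in each cell (y axis) against the number of all genes detected in it (x axis), with 1 point per cell coloured by cell class; the dashed line at 4.5 separates the 72 cells with 5 or more of the genes. Most cells lie at 0 to 4, the share above the line is larger among cells with more genes, and the highest cell reaches 36.

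Each gene was counted in cells chosen by the other 37, so that no gene helped to choose its own cells. Cells with 5 or more of the other 37 are called rich cells in this account of single genes, and the cells with fewer are the rest. Among the cyclins and Cdk1, Ccnb1, the B-type cyclin that activates CDK1 at mitotic entry, had a UMI in 38.9% of rich cells, against 0.207% of the rest. Cdk1 itself was found in 42.9% of rich cells, against 3.92% of the rest. Ccnb2, the other B-type cyclin, was found in 42.9% of rich cells and 1.65% of the rest, and Ccna2, the A-type cyclin of S and G2 phase, in 18.1% of rich cells and 0.828% of the rest. Cks2, a small subunit that binds CDKs, was less exclusive, in 39.4% of rich cells and 5.99% of the rest.

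Among the mitotic kinases and their partners, the 3 on this list that belong to the chromosomal passenger complex were the most often found. Birc5 (survivin) was found in 57.7% of rich cells, against 2.27% of the rest. Cdca8 (borealin) was found in 51.4% of rich cells and 1.03% of the rest, and Aurkb, the kinase of the complex, in 36.1% of rich cells and 0.828% of the rest. The kinase Plk1 was found in 26.4% of rich cells and 0.414% of the rest. Aurka was found in 33.8% of rich cells and 1.86% of the rest, and its activator Tpx2 in 33.3% of rich cells and 4.55% of the rest.

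The checkpoint and destruction genes held both a broadly found gene and some that were found almost nowhere else than in rich cells. Bub3, which also acts outside mitosis, was the most widely detected of all 38, in 212 cells (38.2%), with 69.2% of rich cells and 34.1% of the rest. The checkpoint kinase Bub1, by contrast, was found in 10 cells, all of them rich cells. Bub1b, its relative in the checkpoint, was found in 26.8% of rich cells and 1.03% of the rest. Cdc20, which activates the anaphase-promoting complex, was found in 23.9% of rich cells and 1.65% of the rest. Ube2c, which supplies that complex with ubiquitin, was found in 31.9% of rich cells and 1.03% of the rest, and Cdca3, a promoter of mitotic entry, in 39.4% of rich cells and 1.03% of the rest.

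At the centromere and kinetochore, Cenpa, the centromeric histone, was found in 45.7% of the rich cells, against 3.30% of the rest. Ndc80, which binds kinetochores to microtubules, was found in 29.2% of rich cells and 0.621% of the rest, and the kinetochore motor Cenpe in 27.8% of rich cells and 0.828% of the rest. Cenpf was found in 15.3% of rich cells and 0.207% of the rest. All 11 cells with Ska1, which couples kinetochores to microtubules, were rich cells. Along the spindle, Kif11, which pushes the poles apart, was found in 29.2% of rich cells and 0.621% of the rest. The depolymerase Kif2c (16.7% of rich cells) and the microtubule binders Nusap1 (26.4%) and Hmmr (18.1%) were each found in 0.414% of the rest. Tacc3, which stabilises spindle fibres, was found in 64.7% of rich cells and 4.72% of the rest, and the microtubule destabiliser Stmn1 in 73.5% of rich cells and 7.39% of the rest.

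The 5 midzone and cytokinesis genes, Kif20a, Kif23, Prc1, Ect2 and Anln, were each found in 13.9% to 38.03% of rich cells, against 0.414% to 2.69% of the rest. Among the chromosome structure genes, Top2a, the topoisomerase that disentangles sister chromatids, was found in 50.0% of rich cells and 1.45% of the rest, and Mki67, which coats mitotic chromosomes, in 40.8% of rich cells and 3.10% of the rest. The condensin subunit Smc2 was found in 44.3% of rich cells and 3.92% of the rest, and its partner Smc4 in 73.5% of rich cells and 11.5% of the rest. Hmgb2, an abundant DNA-bending protein, was found in 91.0% of rich cells and 26.2% of the rest. Bub3, Hmgb2, Smc4 and Stmn1 were thus the genes seen most often outside rich cells. Bub3 had 27.3% of its UMIs in rich cells, and Ccnb1 had 99.0% of them there.

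**Figure D2:**
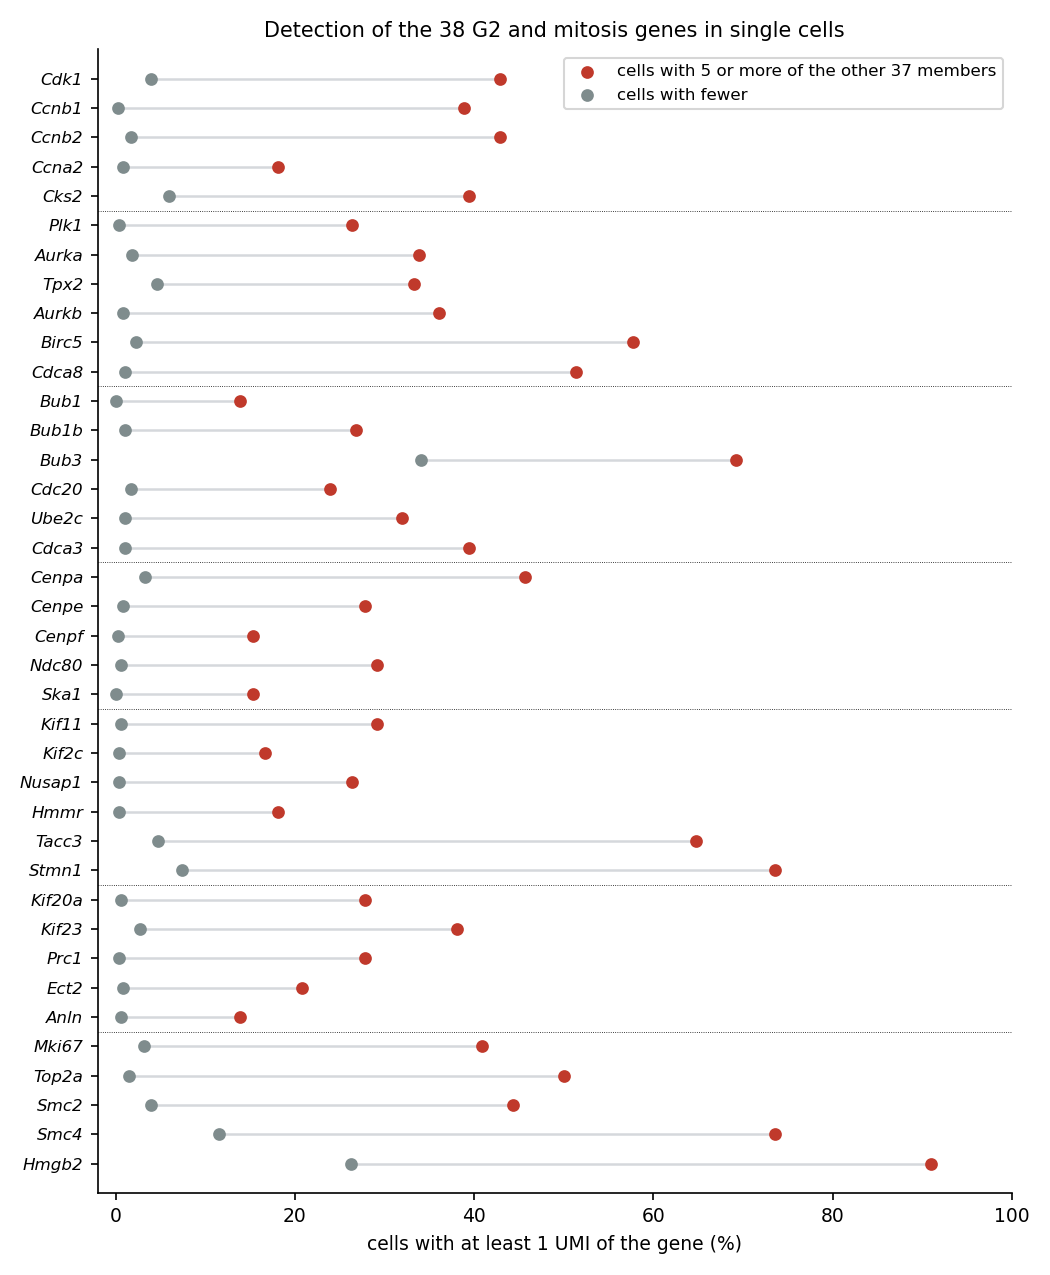
Percent of cells with at least 1 UMI of each of the 38 genes, in cells with 5 or more of the other 37 genes (red) and in cells with fewer (grey), with genes grouped by role between dotted lines. Bub3 and Hmgb2 are the only genes above 20% in the grey cells, and Ccnb1 and Cdca8 stay near 0 there.

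Taken by role, at least 1 chromosome structure gene was found in 98.6% of the 72 G2/M-rich cells and 37.5% of the other 483 cells. For the checkpoint and destruction genes it was 94.4% against 35.4%, for the spindle genes 93.1% against 11.8%, and for the cyclins with Cdk1 84.7% against 11.2%. For the kinases and passengers it was 75% against 10.6%, for the centromere and kinetochore genes 65.3% against 4.35%, and for the midzone genes 62.5% against 4.97%. No role was thus carried by every G2/M-rich cell. These shares describe how the cells were chosen, and no test was made of them.

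Genes of DNA replication were often in the same cells. Of 32 S phase genes, 5 or more were found in 49 of the 72 G2/M-rich cells (68.1%), against 57 of the other 483 cells (11.8%). Seen the other way, 46.2% of the 106 cells with 5 or more S phase genes were G2/M-rich. The median G2/M-rich cell had 10 of the S phase genes, and the median of the other cells was 1. The 19 cells with 20 or more of the G2 and mitosis genes had a median of 17 of the 32 S phase genes. Deeper cells show more of both lists, and the part of depth in this overlap was not tested.

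The G2/M-rich cells mostly carried cDC1 transcripts. At least 2 of 9 cDC1 markers (Xcr1, Clec9a, Irf8, Batf3 and others), each with 10 UMIs or more, were found in 80.6% of them, against 57.4% of the other cells. At least 2 of 8 markers of mature dendritic cells (Ccr7, Fscn1, Ccl22 and others) were found in 6.94%, against 29.6% of the other cells. Macrophage markers were found in 16.7% against 14.7%, plasmacytoid markers in 20.8% against 13.7%, and fibroblast markers in 2.78% against 9.73%. No cell had 2 melanoma, B cell or neutrophil markers at that level. Of the 6 melanoma markers, 3 were in the table. The median G2/M-rich cell had 2532 genes, against 1484 in the other cells, and the part of depth in these marker shares was not tested.

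Scatter and protein staining recorded during the sort were not used to choose the cells. They were on record for 458 cells, 56 of them G2/M-rich, and 10 plates had at least 3 recorded cells of each kind. Forward scatter, a measure of size, had a median that was higher in G2/M-rich cells than in the other cells of the same plate on 7 of 10 plates, by 0.102 ± 0.155 on the arcsinh scale (mean ± SD of the plates). CD11c staining was higher on 9 of 10 plates, by 0.411 ± 0.629, and CD45 staining on 8 of 10, by 0.261 ± 0.352. MHC class II staining was higher on 3 of 10 plates, with a mean difference of -0.457 ± 0.676. Exact two-sided sign-flip permutation tests gave p = 0.072, 0.072, 0.045 and 0.061 for these 4 measures. After Benjamini-Hochberg adjustment over the 9 measures recorded, each of these 4 exact p-values was 0.163, so none passed 0.05; the smallest p that 10 plates allow is 0.00195.

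The cells were divided into classes by 3 transcripts that are not among the 38. Ccr7+ cells had at least 1 UMI of Ccr7, C1qa+ cells had C1qa, a macrophage complement gene, and no Ccr7, and Xcr1+ Ccr7- cells had Xcr1 and neither of the others. G2/M-rich were 9 of 170 Ccr7+ cells (5.29%, exact 95% binomial interval 2.45% to 9.81%), 9 of 57 C1qa+ cells (15.8%, 7.48% to 27.9%), and 31 of 141 Xcr1+ Ccr7- cells (21.99%, 15.5% to 29.7%). The other 23 were among the 187 cells with none of the 3 transcripts (12.3%), and 15 of those 23 had at least 2 cDC1 markers at 10 UMIs. These intervals cover counting error only. The median Ccr7+ cell had 1388 genes and the median Xcr1+ Ccr7- cell 2102, so the classes differed in depth as well. Among cells with 2000 genes or more, 6 of 36 Ccr7+ cells, 4 of 16 C1qa+ cells and 28 of 79 Xcr1+ Ccr7- cells were G2/M-rich. With cells thinned to 50000 UMIs, the shares were 6.67% of 135 Ccr7+ cells, 17.8% of 45 C1qa+ cells and 23.3% of 129 Xcr1+ Ccr7- cells. On the 11 plates with at least 5 cells of both classes, the share was lower in Ccr7+ cells on 7, higher on 2 and equal on 2.

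Most of the G2/M-rich Ccr7+ cells barely had Ccr7. The 170 Ccr7+ cells fell apart into 134 with 10 or more Ccr7 UMIs (median 528.5) and 34 with 1 or 2, with 2 cells in between. Among the 34 cells with 1 or 2 Ccr7 UMIs, 8 were G2/M-rich (23.5%, interval 10.8% to 41.2%). Among the 134 cells with 10 or more, 1 was (0.746%, interval 0.0189% to 4.09%). That cell, from Irf1_dXCR1 plate 5, had 661 UMIs of Ccr7 and 786 of C1qa, 13 of the 38 genes and 4608 genes in all. At least 10 UMIs of Fscn1, which marks mature dendritic cells, were found in 4 of the 34 cells and in 84 of the 134. At least 10 UMIs of Xcr1 were found in 14 of the 34 and in 9 of the 134. Whether counts of 1 or 2 UMIs come from the cell itself was not tested.

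Summed per plate, with the plate as a term and edgeR's quasi-likelihood test, the classes at 1 UMI gave 208 of 13960 genes (1.49%) past an adjusted p of 0.05, of which 175 were higher and 33 lower (0.236%) in Ccr7+ cells. None of the 38 was among them. At an unadjusted p of 0.05, 10 of the 38 were lower and 0 higher in Ccr7+ cells, while 1368 of the 13960 genes were past it in either direction. That count of 10 was 1 to 15 with each plate left out. It was 1 without Irf1_FF plate 4, 2 without the Ikbkb_FF plate, and 4 without Irf1_FF plate 1 or 2, Ikbkb_dXCR1 plate 4 or Irf1_dXCR1 plate 5. DESeq2 called 1666 genes, 650 higher and 1016 lower, and 16 of the 38 were among the lower ones (7.28% of all genes); upper-quartile scaling in edgeR called 1 of the 38 lower, Ube2c (0.172% of all genes). The fitted level was lower in Ccr7+ cells for 36 of the 38. Their median fitted log2 fold change was -2.99 (-3.13 with Bub1, which had no UMI in Ccr7+ sums, at its bound), against -0.20 over all genes, and -1.19 without the plate term. By counts pooled over plates 32 were lower, with a median log2 ratio of -1.31. The sums came from 13 plates for Ccr7+ cells and 12 plates for Xcr1+ Ccr7- cells, each over at least 5 cells.

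With each gate set at 10 UMIs in place of 1, the 2 classes parted in these genes. Xcr1+ Ccr7- cells then had 10 or more UMIs of Xcr1 and fewer than 10 of Ccr7 and of C1qa. Of the 36 cells with 1 to 9 Ccr7 UMIs, all Ccr7+ at 1 UMI, 14 had 10 or more UMIs of Xcr1. G2/M-rich cells with 63, 208 and 220 UMIs of Xcr1 and 1 or 2 of Ccr7 thus moved from Ccr7+ to Xcr1+ Ccr7-. The part of these moves in the results below was not tested. Of 134 Ccr7+ cells, 1 was G2/M-rich (0.746%), against 32 of 139 Xcr1+ Ccr7- cells (23.0%, interval 16.3% to 30.9%). The median depth was 1384 genes in Ccr7+ cells and 2127 in Xcr1+ Ccr7- cells. Among cells with 2000 genes or more, 1 of 24 Ccr7+ cells (4.17%) and 30 of 82 Xcr1+ Ccr7- cells (36.6%) were G2/M-rich. In the edgeR test, 450 of 13506 genes (3.33%) passed, and 13 of the 38 were lower in Ccr7+ cells, against a background of 226 genes, or 1.67%. These were Birc5, Cdca8, Top2a, Plk1, Ccnb2, Tacc3, Kif23, Aurkb, Nusap1, Aurka, Cdca3, Hmgb2 and Ube2c, with adjusted p-values between 0.00338 (Birc5) and 0.0484 (Hmgb2 and Ube2c). None of the 38 was higher. Both comparisons use largely the same cells and share the Xcr1+ Ccr7- class, so the second is no independent support for the first.

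Of the 13 calls, 5 were kinases and passengers, a role with 6 members, and the other 8 were spread over 5 roles. Birc5 stood at 0 CPM in 10 of the 12 Ccr7+ plate sums with a highest value of 80.2 CPM, against a median of 196 CPM and a highest of 744 CPM in the 12 Xcr1+ Ccr7- sums. On the 10 plates with both classes Birc5 was lower in Ccr7+ cells on 8 and at 0 in both on the other 2. It was found in 4 of 134 Ccr7+ cells and 23 of 139 Xcr1+ Ccr7- cells, and the ranges of the 2 classes still overlap, with 2 Xcr1+ Ccr7- sums at 0.

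Cdca8 stood at 0 CPM in 11 of 12 Ccr7+ sums, with 26.3 CPM in the other, against a median of 114 CPM and a highest of 433 CPM in Xcr1+ Ccr7- sums (adjusted p = 0.00442, edgeR). It was lower in Ccr7+ cells on 9 of the 10 plates and higher on 0. Aurkb was at 0 in all 12 Ccr7+ sums, against a median of 69.0 CPM and a highest of 400 CPM in Xcr1+ Ccr7- sums. For Plk1 the highest Ccr7+ sum was 0.317 CPM, against a median of 56.7 CPM in Xcr1+ Ccr7- sums, and for Aurka it was 35.2 CPM against a median of 46.4 CPM. All 3 kinases were thus near 0 in nearly every Ccr7+ sum and spread widely in the other class.

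Of the cyclins, Ccnb2 passed, at 0 CPM in every Ccr7+ sum against a median of 78.6 CPM and a highest of 278 CPM in Xcr1+ Ccr7- sums (adjusted p = 0.0215, edgeR). Cdk1 was found in 4 of 134 Ccr7+ cells, against 16 of 139 Xcr1+ Ccr7- cells, and was lower in Ccr7+ cells on 7 plates and higher on 2. Cdk1 and Ccnb1 did not pass in edgeR, while DESeq2 called both lower. Ccnb1 had a UMI in 0 of 134 Ccr7+ cells, against 11 of 139 Xcr1+ Ccr7- cells. By the limit of 3 counts, 0 of 134 allows up to 2.24% of cells with a UMI (the exact 95% binomial interval reaches 2.715%), and it sets no limit on cells that express the gene. Ccna2 was found in 1 Ccr7+ cell and 4 Xcr1+ Ccr7- cells, too few to compare.

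Top2a stood at 0 CPM in 11 of 12 Ccr7+ sums with 45.0 CPM in the other, against a median of 138 CPM and a highest of 428 CPM in Xcr1+ Ccr7- sums (adjusted p = 0.0128, edgeR). Hmgb2 was present in both classes, at 0 to 193 CPM in Ccr7+ sums with a median of 109 CPM, against 105 to 930 CPM in Xcr1+ Ccr7- sums with a median of 447 CPM. Its log2 fold change was -1.85 ± 0.53 (SE), and it was lower in Ccr7+ cells on 9 of 10 plates. Tacc3 was lower in Ccr7+ cells on all 10 plates, with a median of 0 CPM against 171 CPM in Xcr1+ Ccr7- sums.

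Kif23, which bundles midzone microtubules, was found in 0 of 134 Ccr7+ cells and 24 of 139 Xcr1+ Ccr7- cells. Nusap1 was found in 1 Ccr7+ cell and 12 Xcr1+ Ccr7- cells, Cdca3 in 1 Ccr7+ cell and 11 Xcr1+ Ccr7- cells, and Ube2c in 0 Ccr7+ cells and 9 Xcr1+ Ccr7- cells. None of the 5 centromere and kinetochore genes passed in edgeR with every plate. DESeq2 called Cenpa lower, found in 7 of 134 Ccr7+ cells and 15 of 139 Xcr1+ Ccr7- cells. Cenpe, found in 0 of 134 Ccr7+ cells and 11 of 139 Xcr1+ Ccr7- cells, passed in edgeR without Irf1_dXCR1 plate 2.

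Some genes of the list behaved otherwise. Mki67 was found in 9 of 134 Ccr7+ cells (6.72%) and 14 of 139 Xcr1+ Ccr7- cells (10.1%), with medians of 23.4 CPM in Ccr7+ sums and 23.5 CPM in Xcr1+ Ccr7- sums. Pooled over plates it was higher in Ccr7+ cells, at 61.5 CPM against 52.1 CPM in Xcr1+ Ccr7- cells (log2 ratio 0.24). It was lower in Ccr7+ cells on 4 of the 10 plates and higher on 4, with a log2 fold change of -1.22 ± 2.05 (SE; adjusted p = 0.804, edgeR), an error that leaves room for a large difference either way. Bub3 was found in 44 of 134 Ccr7+ cells and 79 of 139 Xcr1+ Ccr7- cells, with medians of 264 CPM in Ccr7+ sums and 431 CPM in Xcr1+ Ccr7- sums, and did not pass (log2 fold change -0.79 ± 0.43; adjusted p = 0.400, edgeR). Stmn1 was found in 4 Ccr7+ cells and 35 Xcr1+ Ccr7- cells and was lower in Ccr7+ cells on 9 of 10 plates, and Smc4 was found in 10 Ccr7+ cells and 43 Xcr1+ Ccr7- cells. Neither passed in edgeR with every plate, Stmn1 passed without Irf1_dXCR1 plate 1, and DESeq2 called both lower.

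**Figure D3:**
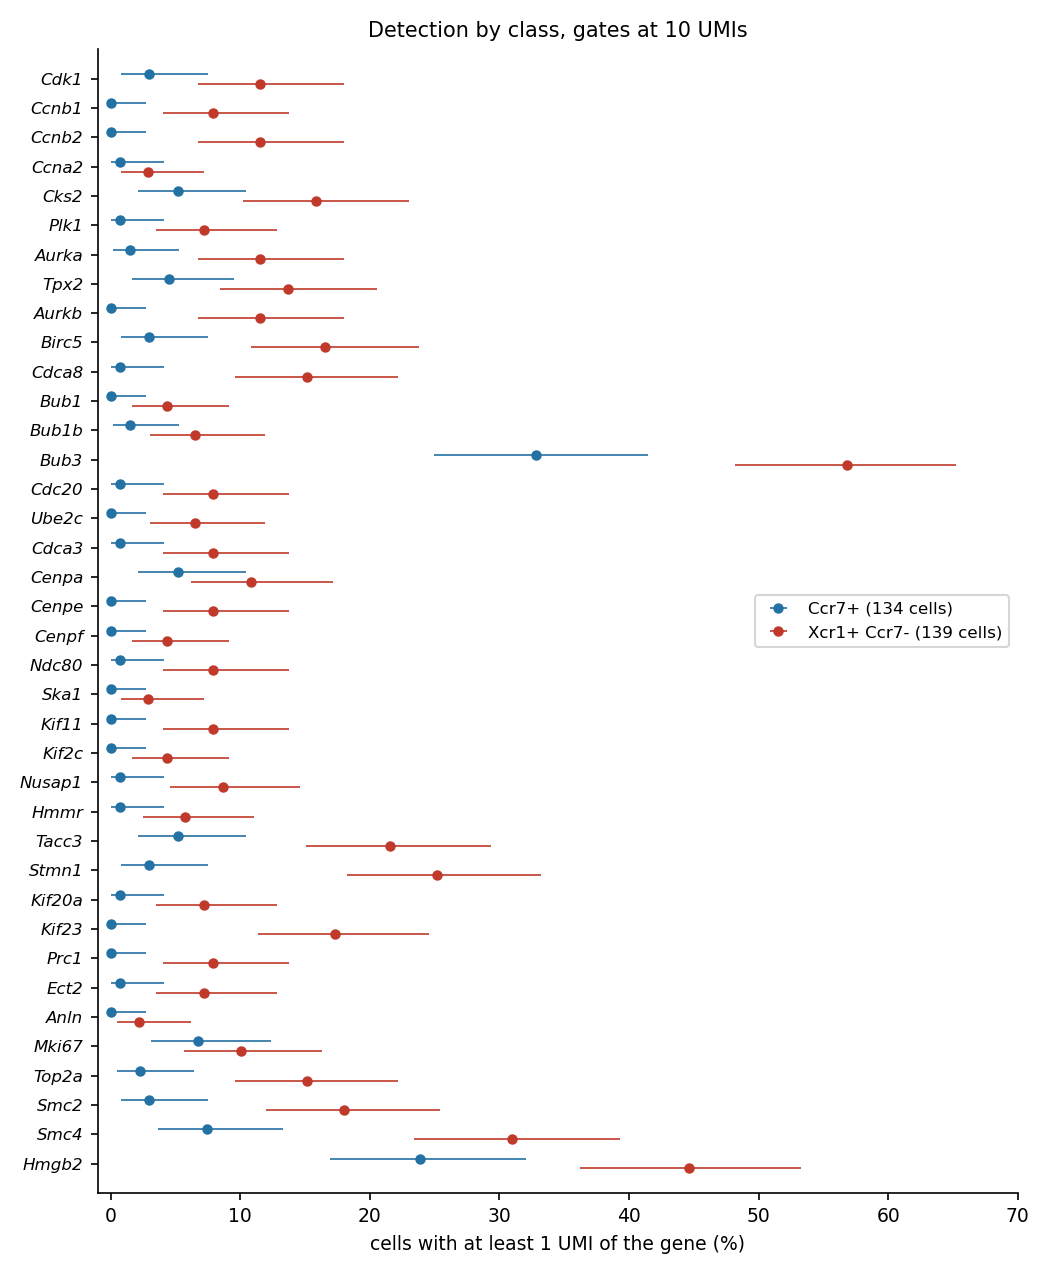
Percent of cells with at least 1 UMI of each of the 38 genes among 134 Ccr7+ cells and 139 Xcr1+ Ccr7- cells, both gated at 10 UMIs, with exact 95% binomial intervals that cover counting error only. Mki67 and Bub3 are found in both classes, while Kif23, Aurkb and Ccnb2 are found in none of the Ccr7+ cells.

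The calls at the 10-UMI gates lean on few plates. With each plate left out in turn, 3 to 14 of the 38 passed, and Birc5, Cdca8 and Top2a passed in all 14 fits. Without Ikbkb_dXCR1 plate 4 those 3 alone remained, without Irf1_FF plate 4 there were 5, without Irf1_dXCR1 plate 4 or plate 5 there were 7, and without Irf1_FF plate 1, 2 or 3 or the Ikbkb_FF plate there were 8. Over all genes, 97 to 237 were called lower in these 14 fits, against 226 of 13506 with every plate. There were 97 of 13313 without Irf1_FF plate 4 and 118 of 13210 without Ikbkb_dXCR1 plate 4. DESeq2 called 24 of the 38 lower, the 13 among them (background 13.3%), and edgeR with library totals alone called 12 (background 1.75%). The median of all genes was -0.68 on the log2 scale in the main scaling and -0.07 with DESeq2. By the fitted level all 38 were lower in Ccr7+ cells in each of these 3 scalings. By counts pooled over plates 37 were lower and Mki67 was higher, with a median log2 ratio of -4.04 over the 38. For 13 of the 38, no Ccr7+ sum held a UMI, so no fold change is given for them. Over all genes, the main test called 224 higher and 226 lower in Ccr7+ cells, and DESeq2 called 640 higher and 1801 lower.

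The rest of the cell cycle was read from lists beside the 38, in the same fit at the 10-UMI gates. These lists were read at these gates after the data were seen, and no values with plates left out are given for them. With gates at 1 UMI, 1 of 32 S phase genes fell in Ccr7+ cells and none of 46 other G2 and mitosis genes did. There 1 of 21 inhibitors and repressors rose, and none of 10 G1 cyclins and kinases. Over all genes with gates at 1 UMI, 175 of 13960 rose and 33 (0.236%) fell. At the 10-UMI gates, 226 of all 13506 genes (1.67%) fell in Ccr7+ cells and 224 rose. Of 32 S phase genes, 8 fell in Ccr7+ cells and none rose. Mcm6, a subunit of the replicative helicase, was found in 5 of 134 Ccr7+ cells and 44 of 139 Xcr1+ Ccr7- cells, with an adjusted p of 0.00238 in edgeR. Rrm2, a subunit of ribonucleotide reductase, was found in 2 Ccr7+ cells and 18 Xcr1+ Ccr7- cells (adjusted p = 0.0136, edgeR). Of 45 other G2 and mitosis genes tested, 4 fell and none rose, among them Spc24 and Spc25, partners of Ndc80 in the kinetochore. Spc24 was found in 2 of 134 Ccr7+ cells and 31 of 139 Xcr1+ Ccr7- cells, with an adjusted p of 0.000198 in edgeR. Spc25 was found in 1 Ccr7+ cell and 13 Xcr1+ Ccr7- cells (adjusted p = 0.00569, edgeR).

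In the opposite direction, where 224 of all 13506 genes rose in Ccr7+ cells, 1 of 21 inhibitors and repressors of the cycle rose. This was Cdkn1a, the CDK inhibitor p21, at a median of 1422 CPM in Ccr7+ sums, against 316 CPM in Xcr1+ Ccr7- sums (log2 fold change 2.37 ± 0.46; adjusted p = 0.00184, edgeR). Its ranges were 529 to 2003 CPM in Ccr7+ sums and 0.835 to 611 CPM in Xcr1+ Ccr7- sums, and it was found in 100 of 134 Ccr7+ cells and 53 of 139 Xcr1+ Ccr7- cells. Among 10 G1 cyclins and kinases Ccnd2 (cyclin D2) rose, at a median of 771 CPM in Ccr7+ sums and 133 CPM in Xcr1+ Ccr7- sums (log2 fold change 2.56 ± 0.60; adjusted p = 0.0143, edgeR). Beside these, 7 of 8 mature dendritic cell markers rose, 3 of 9 cDC1 markers fell, and 1 of 8 macrophage markers and 1 of 3 cDC2 markers tested (Sirpa) rose. The 7 include Ccr7, the 3 include Xcr1 and the macrophage marker is C1qa, all used to form the classes, so their calls were fixed by the gates. Of the targeted genes, Irf1 rose in Ccr7+ cells (log2 fold change 1.98 ± 0.55; adjusted p = 0.0419, edgeR). The part of the difference in depth between the classes in these results was not tested beyond the values above.

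C1qa+ cells came in at least 5 cells on only 4 plates. At 1 UMI, 33 of 13960 genes passed, 22 higher and 11 lower (0.0788%) in C1qa+ cells, and none of the 38 did; 1 was lower at an unadjusted p of 0.05. DESeq2 called 658 genes, 218 higher and 440 lower, and 5 of the 38 lower (Cenpe, Cenpf, Ndc80, Ect2 and Anln; background 3.15%). The fitted level was lower in C1qa+ cells for 33 of the 38, with a median log2 fold change of -1.77 against -0.41 over all genes. Single plates moved that median, to -0.95 without Ikbkb_dXCR1 plate 4 (29 lower) and to -3.07 without Irf1_dXCR1 plate 1 (32 lower), and it was -1.14 without the plate term. At 10 UMIs, 8 of 54 C1qa+ cells (14.8%) and 32 of 139 Xcr1+ Ccr7- cells (23.0%) were G2/M-rich, and again none of the 38 passed in edgeR. DESeq2 at these gates called 2 of the 38 lower, Hmmr and Ect2, while over all 13506 genes it called 193 higher and 470 lower. Of the 5 it called at 1 UMI, Ect2 alone was called again. Aurka had a median of 110 CPM in C1qa+ sums and 46.4 CPM in Xcr1+ Ccr7- sums, and Birc5 a median of 48.8 CPM in C1qa+ sums and 196 CPM in Xcr1+ Ccr7- sums, with ranges that overlapped for both genes. This comparison and the one above share the Xcr1+ Ccr7- cells.

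Between genotypes, the share of G2/M-rich cells was 14.3%, 14.3%, 10.3%, 8.11% and 5.09% on the 5 Irf1_dXCR1 plates from the highest to the lowest, a mean of 10.4% ± 3.99 (SD, n = 5). On the 4 Irf1_FF plates it was 20.9%, 17.5%, 16.1% and 13.7%, a mean of 17.1% ± 3.01 (SD, n = 4). The lowest Irf1_FF plate lay below the 2 highest Irf1_dXCR1 plates, so the groups overlapped. On Ikbkb_dXCR1 plates the share was 2.63% to 22.2%, a mean of 12.6% ± 8.97 (SD, n = 4), against 14.7% on the Ikbkb_FF plate (5 of 34 cells, interval 4.95% to 31.1%), which has no replicate.

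The shares over the list are described without a test. Median genes per cell were 1560 ± 607 on Irf1_dXCR1 plates and 1594 ± 586 on Irf1_FF plates (exact two-sided permutation test, p = 0.960, smallest possible 0.00794). Thinned to 50000 UMIs, the shares were 10.96% ± 4.18 on Irf1_dXCR1 plates and 21.1% ± 2.95 on Irf1_FF plates. Their ranges, 6.00% to 15.6% and 17.5% to 24.1%, did not overlap. Thinning left out 26 of 223 Irf1_dXCR1 cells and 34 of 165 Irf1_FF cells, an unequal loss. The G2/M-rich cells were 22 in Irf1_dXCR1 and 27 in Irf1_FF after thinning, against 23 and 28 before, so the shares moved mainly with the cells left out. Among cells with at least 500 genes, the share was 10.6% ± 4.1 on Irf1_dXCR1 plates (5.36% to 14.29%, 207 of 223 cells kept). On Irf1_FF plates it was 19.6% ± 3.3 (14.89% to 22.6%, 146 of 165 cells kept). These ranges did not overlap either. Without cells that had fibroblast markers, the share was 11.1% ± 4.32 on Irf1_dXCR1 plates (5.36% to 15.4%) and 20.5% ± 8.70 on Irf1_FF plates (14.3% to 33.3%), which overlapped; Irf1_FF plate 1 stood at 33.3%, against 20.9% with all its cells. Within Xcr1+ Ccr7- cells, 7 of 44 Irf1_dXCR1 cells and 15 of 43 Irf1_FF cells were G2/M-rich. By plate these were 0%, 0%, 5.88%, 25.0% and 41.7% on Irf1_dXCR1 plates of 4 to 17 such cells, and 31.3%, 33.3%, 33.3% and 50.0% on Irf1_FF plates of 6 to 16. The highest Irf1_dXCR1 plate stood among the Irf1_FF plates. In Ikbkb_dXCR1 mice 4 of 35 Xcr1+ Ccr7- cells were G2/M-rich, against 5 of 19 in the Ikbkb_FF mouse.

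**Figure D4:**
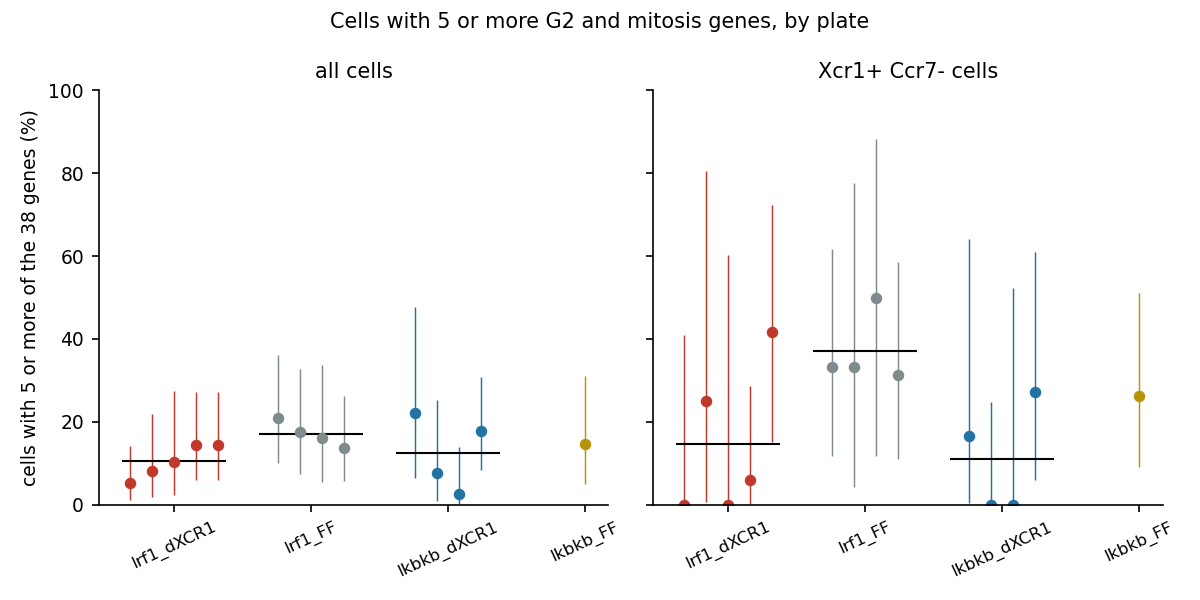
Percent of cells with 5 or more of the 38 genes on each plate, by genotype, over all cells (left) and over Xcr1+ Ccr7- cells (right); points are plates with exact 95% binomial intervals that cover counting error only, and black bars are means of the plates. Over all cells the Irf1_dXCR1 plates lie between 5.09% and 14.3% and the Irf1_FF plates between 13.7% and 20.9%.

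No gene passed the test between Irf1_dXCR1 and Irf1_FF plates over all cells (0 of 16203, a background of 0% in edgeR; 1272 at an unadjusted p of 0.05, 100 with DESeq2 and 0 with limma on cells of equal weight). None of the 38 reached an unadjusted p of 0.05 in edgeR. The fitted level was lower in Irf1_dXCR1 for 32 of the 38, with a median log2 fold change of -0.75, while over all genes the median was -0.0048 and 50.2% were lower. The 72 G2/M-rich cells held 74.9% of the UMIs of the 38 genes, so the directions of the 38 are not independent of each other. The same limit holds for the counts of lower genes in the other comparisons. The kinases with passengers, the spindle genes, the cyclins with Cdk1 and the chromosome structure genes were lower for every member, 22 genes in all, and the checkpoint and centromere genes for 3 of 6 and 3 of 5. The S phase list was lower for 30 of 32 genes and the other G2 and mitosis genes for 32 of 46, with no call in either. All 6 fibroblast markers were lower in Irf1_dXCR1 as well, and without the cells carrying them 33 of the 38 genes were lower.

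Aurkb, Cenpe and Nusap1 were the only ones of the 38 whose plates did not overlap, all lower in Irf1_dXCR1; over all genes 91 of 16203 (0.562%) were lower without overlap and 110 (0.679%) higher. Aurkb stood at 0, 0.217, 13.9, 18.8 and 28.4 CPM on Irf1_dXCR1 plates, against 39.2, 58.1, 79.0 and 79.7 CPM on Irf1_FF plates. Its log2 fold change was -2.38 ± 1.25 (SE), with an adjusted p of 0.519 in edgeR. Nusap1 was at 0 on 2 Irf1_dXCR1 plates and at 9.20, 13.3 and 32.2 CPM on the others, against 38.2, 56.2, 95.8 and 125 CPM on Irf1_FF plates. Cenpe was at 0 on 2 Irf1_dXCR1 plates and at 36.3, 38.9 and 40.6 CPM on the others, against 45.9, 49.2, 64.9 and 67.7 CPM on Irf1_FF plates. In each of the 3 genes at least 1 Irf1_dXCR1 plate had no UMI.

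Cdk1 stood at 0, 7.28, 43.0, 92.2 and 154 CPM on Irf1_dXCR1 plates, against 45.2, 84.5, 157 and 170 CPM on Irf1_FF plates. The groups overlapped, with a log2 fold change of -0.95 ± 1.30 (SE). Birc5 stood at 16.3, 27.8, 108, 112 and 152 CPM on Irf1_dXCR1 plates, against 80.2, 115, 198 and 200.4 CPM on Irf1_FF plates, a log2 fold change of -0.83 ± 0.64. Again the lower Irf1_FF plates lay among the higher Irf1_dXCR1 plates.

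Top2a stood at 0, 43.2, 66.1, 68.2 and 75.6 CPM on Irf1_dXCR1 plates, against 59.2, 74.3, 108 and 139 CPM on Irf1_FF plates (log2 fold change -0.91 ± 1.33). Mki67 stood at 0, 28.0, 34.5, 46.2 and 58.7 CPM on Irf1_dXCR1 plates, against 22.4, 68.7, 72.0 and 115 CPM on Irf1_FF plates (-1.05 ± 1.14). In both, Irf1_dXCR1 plate 3 had no UMI, and the middle of the Irf1_dXCR1 values lay below the middle of the Irf1_FF values without a gap.

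Stmn1 stood at 20.0, 42.3, 52.3, 62.3 and 92.6 CPM on Irf1_dXCR1 plates, against 76.4, 77.4, 109 and 181 CPM on Irf1_FF plates (log2 fold change -1.04 ± 0.67), with 1 Irf1_dXCR1 plate inside the Irf1_FF range. Ccnb1 stood at 4.88, 13.3, 14.8, 31.4 and 78.5 CPM on Irf1_dXCR1 plates, against 11.1, 23.5, 42.1 and 73.0 CPM on Irf1_FF plates (-0.39 ± 1.07). The Irf1_FF range lay inside the Irf1_dXCR1 range. Ccna2 was at 0 to 13.6 CPM on Irf1_dXCR1 plates and 0 to 35.1 CPM on Irf1_FF plates, with plates at 0 in both.

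The broadly detected genes varied less. Hmgb2 stood at 195, 207, 250, 299 and 320 CPM on Irf1_dXCR1 plates, against 298, 323, 385 and 391 CPM on Irf1_FF plates (log2 fold change -0.46 ± 0.28). Smc4 stood at 81.3, 84.3, 94.7, 125 and 195 CPM on Irf1_dXCR1 plates, against 100.2, 183, 187 and 199 CPM on Irf1_FF plates (-0.53 ± 0.51). Bub3 was the one of these that was not lower, at 355, 390, 402, 461 and 507 CPM on Irf1_dXCR1 plates, against 225, 259, 416 and 522 CPM on Irf1_FF plates (0.25 ± 0.28). The groups overlapped in all 3 genes.

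**Figure D5:**
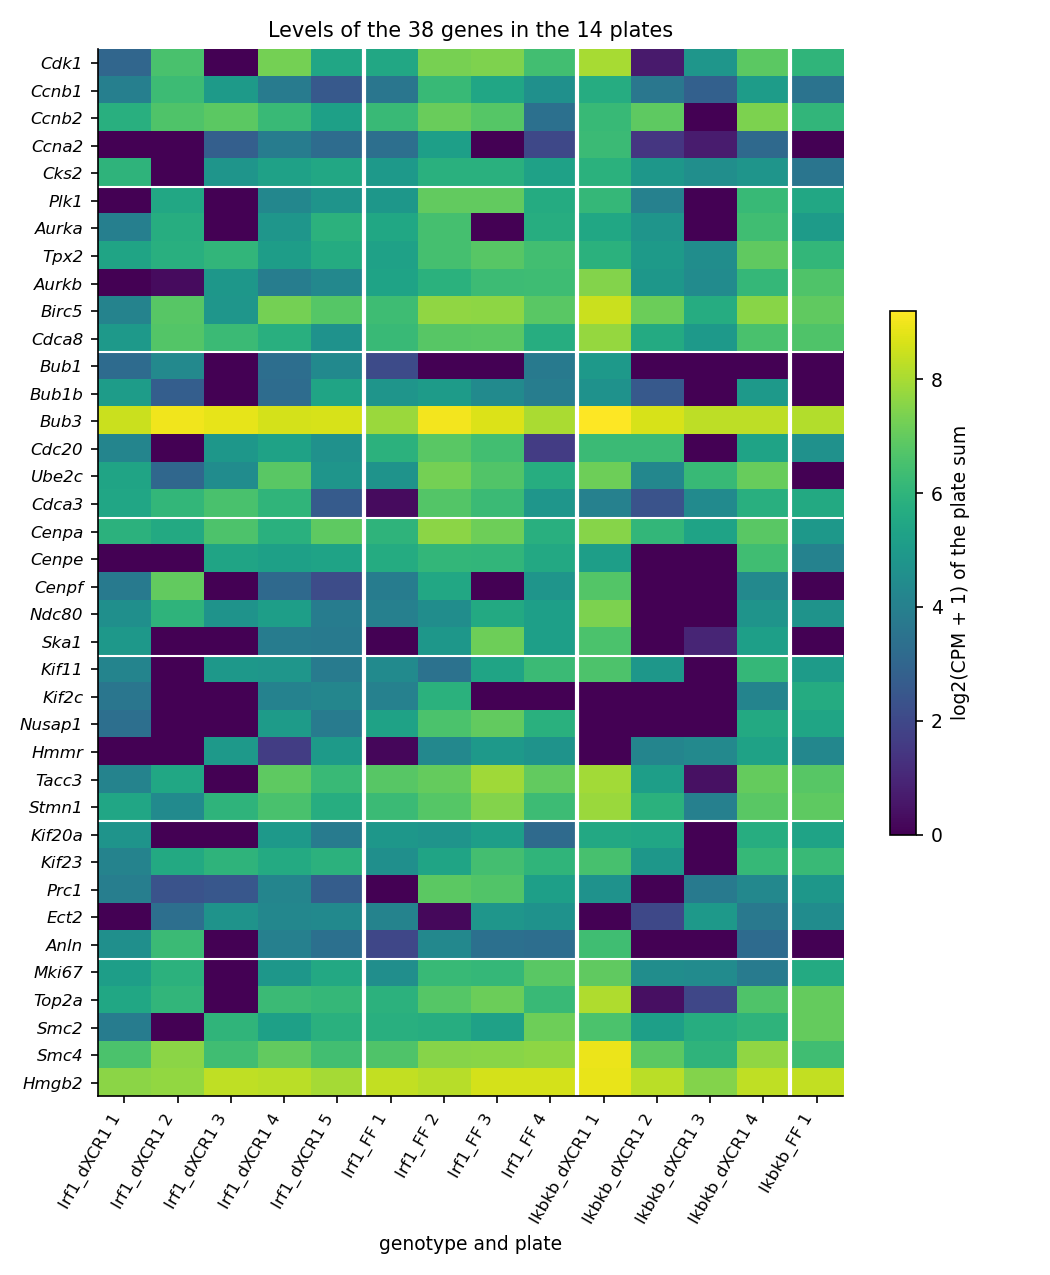
Heat map of the level of each of the 38 genes on each plate, as log2(CPM + 1) of the counts summed over the plate's cells, with genes in rows by role and plates in columns by genotype. Bub3 and Hmgb2 are present on every plate, and Irf1_dXCR1 plate 3 and Ikbkb_dXCR1 plate 3 have the most genes at 0, 14 and 15 of the 38.

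With every cell given equal weight, as the mean over a plate's cells of log2(CPM + 1), the average over the 38 genes was 0.579 ± 0.219 on Irf1_dXCR1 plates (SD, n = 5) and 0.744 ± 0.0802 on Irf1_FF plates (SD, n = 4). It was 0.648 ± 0.278 on Ikbkb_dXCR1 plates (SD, n = 4) and 0.705 on the Ikbkb_FF plate. On this scale Cdk1, Aurkb and Nusap1 did not overlap between the Irf1 groups, all lower in Irf1_dXCR1, against 49 of 16203 genes (0.302%) lower and 54 (0.333%) higher over all genes. Cdk1 stood at 0, 0.135, 0.431, 0.896 and 0.946 on Irf1_dXCR1 plates, against 0.998, 1.01, 1.18 and 1.27 on Irf1_FF plates. The difference for Cdk1 was -0.63 ± 0.28 (SE) with an adjusted p of 0.938 in limma. Bub3 went the other way, with means of 3.81 on Irf1_dXCR1 plates and 3.07 on Irf1_FF plates, a difference of 0.75 ± 0.60, within its error.

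In the Ikbkb comparison the single Ikbkb_FF plate, assumed to vary like the other groups, limits every value. No gene passed in edgeR (0 of 16203, a background of 0%; 707 at an unadjusted p of 0.05), and 17 of the 38 were lower in Ikbkb_dXCR1. The Ikbkb_FF plate had no UMI of Ccna2, Bub1, Bub1b, Ube2c, Cenpf, Ska1 and Anln, so no fold change is given for these. DESeq2 called 5 of them higher in Ikbkb_dXCR1 (Bub1, Bub1b, Ube2c, Cenpf and Anln), against a background of 7.28% in either direction. Ikbkb_dXCR1 plate 1 was high in many of the genes and plate 3 low in most. Smc4 stood at 483, 117, 62.5 and 205 CPM on Ikbkb_dXCR1 plates 1 to 4, against 82.4 CPM on the Ikbkb_FF plate. Top2a stood at 275, 0.294, 2.86 and 101 CPM on the Ikbkb_dXCR1 plates, against 130 CPM on the Ikbkb_FF plate, and Cdk1 at 252, 0.587, 27.6 and 117 CPM against 63.4 CPM. The Ikbkb_FF value lay inside the range of the Ikbkb_dXCR1 plates for all 3 genes.

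Within Xcr1+ Ccr7- cells, summed on the plates with at least 5 of them (3 Irf1_dXCR1, 4 Irf1_FF, 4 Ikbkb_dXCR1 and 1 Ikbkb_FF plates), no gene of 11868 passed in either comparison with edgeR, a background of 0% (527 and 497 at an unadjusted p of 0.05 for Irf1 and Ikbkb; 109 and 523 with DESeq2). For Irf1, 31 of the 38 were lower in Irf1_dXCR1, with a median log2 fold change of -1.09 against 0.02 over all genes. Without Irf1_dXCR1 plate 5, which holds 5 of the 7 G2/M-rich Xcr1+ Ccr7- cells of that group, 37 of the 38 were lower. The median was -0.53 without Irf1_dXCR1 plate 1 (28 lower) or plate 4 (29 lower), and -0.40 over sums of at least 10 cells (24 lower). For Ikbkb, 17 of the 38 were lower in Ikbkb_dXCR1, while 42.84% of all genes were lower. DESeq2 called 5 of the 38 (background 4.41%), 4 higher and 1 lower in Ikbkb_dXCR1. The higher ones were Bub1b, Ube2c, Cenpf and Ska1, with no UMI in the Ikbkb_FF sum. The lower one was Kif2c, with no UMI in the Ikbkb_dXCR1 sums. The difference between the Irf1 and Ikbkb contrasts, tested in the same fits, passed for no gene with edgeR. At an unadjusted p of 0.05 there were 543 genes over all cells and 351 in Xcr1+ Ccr7- cells. DESeq2 called 900 genes over all cells (5.55%), 4 of the 38 among them, and 375 in Xcr1+ Ccr7- cells (3.16%), 5 of the 38 among them, while limma called 167 over all cells and none of the 38. The Irf1 plates carry one experiment label and the Ikbkb plates another, so experiment and targeted gene cannot be told apart in that difference.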

How the data were processed

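UMI counts per gene and cell were used as the authors deposited them, with no cell removed. Per the submitters' processing notes, the tools were STAR 2.5.3a, HTSeq 0.9.1 and bcl2fastq, with build GRCm38; how cells were filtered is not given in the sources used here. Tags of 5 bases can take 1024 forms, which caps each count, so transcripts near that cap are understated. The deposited cell annotation gave each cell's plate and, as scores on the arcsinh scale, the scatter and staining of the sort. The spike-in share of each cell was taken as the deposited fraction, which between plates had medians of 3.14% to 7.16%. No doublet caller was run on cells sorted singly into wells.

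Cells are not replicates. Counts were summed per plate, or per plate and cell class over at least 5 cells, and the plate (1 tumour of 1 mouse) was the replicate, numbered in accession order. Fits took all 4 groups together, which share 1 estimate of the spread, or all classes with the plate as a term. Genes kept by filterByExpr were scaled by TMM and tested two-sided by quasi-likelihood (edgeR 4.0.16, R 4.3.3), with Benjamini-Hochberg adjustment over all genes tested and a threshold of 0.05. This test gives no standard error. The SE printed with an edgeR fold change is the absolute fold change divided by the square root of the test's F statistic. It is an approximation built from the test itself. All 38 genes passed the filter in each main comparison. Values in CPM are counts per 1000000 UMIs, after TMM scaling where summed over all cells of a plate. Fitted fold changes of genes with no UMI in a group depend on the prior count and are not given, and list medians were also taken from pooled counts with a floor of 3 counts over the group. Fits were tested on simulated counts, but no outcome is given here, so no conclusion on their accuracy is drawn from that. DESeq2 1.42.0, limma 3.58.1, other scalings and gates, and each plate left out in turn were alternatives. Promoters are RefSeq, GRCm38.p6.

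The 38 genes, the other lists and the classes were chosen with earlier results of these data known. The rule for naming allowed all 38, gave values per plate for 10 of them (Mki67, Top2a, Cdk1, Ccnb1, Ccna2, Birc5, Hmgb2, Stmn1, Smc4 and Bub3) and for any past the threshold, and in other lists named up to 6 genes past it. The gates at 10 UMIs were a listed alternative to 1 UMI. Aurkb, Cenpe and Nusap1 in the Irf1 comparison were named after their values were seen.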

Additional observations from a re-analysis of the deposited data

Results flagged for a closer look

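Among 36 groups of 4 or 5 plates, for the levels of single genes and the share of G2/M-rich cells, 3 held a plate far from the others of its group by Dixon's test, and chance flags about 5% of groups. Mki67 stood at 124 CPM on Ikbkb_dXCR1 plate 1, while the next of the 4 plates had 22.02 CPM. Ccna2 stood at 75.6 CPM on the same plate, and the next had 7.93 CPM. Smc4 was lowest on Irf1_FF plate 1, at 100.2 CPM, while the next plate had 183 CPM. Ikbkb_dXCR1 plate 1 had the fewest cells of all plates, 18, of which 4 were G2/M-rich, and Irf1_FF plate 1 had the highest share of cells with fibroblast markers, 37.2%. The part of either in these values was not tested.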

How the results depend on the processing

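Of the fold changes of single genes recomputed under alternatives, 567 kept direction and call, 21 passed the threshold anew and 2 reversed without Irf1_FF plate 2 (Irf1, all cells): with each plate left out, Ccnb1 ran between -1.22 and 0.16 and Ccna2 between -1.72 and 0.44. The share of G2/M-rich cells moved with the number of genes asked for: with 3 or more it was 25.0% (Irf1_dXCR1), 31.9% (Irf1_FF), 24.2% (Ikbkb_dXCR1) and 29.4% (Ikbkb_FF), with 8 or more 6.68% (Irf1_dXCR1) and 11.1% (Irf1_FF), and with 10 or more 5.86% (Irf1_dXCR1), 8.58% (Irf1_FF) and 8.82% (Ikbkb_FF). Without the 6 broad genes it was 6.81% (Irf1_dXCR1) and 12.7% (Irf1_FF), and thinned 21.1% (Irf1_FF). Chosen after seeing the data, it was 20.5% in Irf1_FF without fibroblast-marker cells, and 14.5% (Irf1_dXCR1) and 37.0% (Irf1_FF) in Xcr1+ Ccr7- cells. The forward scatter difference was 0.0806 to 0.125 with each plate left out. Its exact sign-flip p, not adjusted over the measures recorded, was under 0.05 without Irf1_dXCR1 plate 3, Irf1_FF plate 1 or Irf1_FF plate 4. Those are the plates on which the difference was negative (-0.112, -0.103 and -0.0931). A lower p without them follows from which plate was left out. Counts of genes with DESeq2 were 100 (Irf1) and 1180 (Ikbkb) over all cells, 109 and 523 in Xcr1+ Ccr7- cells, 1666 (Ccr7+), 658 (C1qa+) and 2441 (Ccr7+ at 10 UMIs), and of the 38 they were 5 (Ikbkb), 5 (Ikbkb, Xcr1+ Ccr7- cells), 16, 5 and 24. With limma 203 genes passed for Ikbkb over all cells, all lower in Ikbkb_dXCR1, while of the 1180 with DESeq2 1120 were higher, so these tools differed in direction. Upper-quartile factors gave 62 genes for C1qa+ and 1 of the 38 for Ccr7+. With at least 10 cells per sum there were 3 (Ikbkb, Xcr1+ Ccr7- cells), 96 (Ccr7+) and 9 (C1qa+) genes, with no plate term 567 (Ccr7+) and 138 (C1qa+), and with gates at 10 UMIs 450 genes and 13 of the 38 (Ccr7+). With each plate left out, the genes passing were 0 to 1 (Irf1, Xcr1+ Ccr7- cells; 1 without Irf1_dXCR1 plate 5), 11 to 45 (C1qa+; 11 without Irf1_dXCR1 plate 1, 12 without Irf1_FF plate 2) and 270 to 459 (Ccr7+ at 10 UMIs; 270 without Irf1_FF plate 4, 288 without Ikbkb_dXCR1 plate 4, 298 without Irf1_dXCR1 plate 4), and 3 to 14 of the 38 at those gates. Of the 38, 9 to 20 (all cells) and 10 to 21 (Xcr1+ Ccr7- cells) were lower in Ikbkb_dXCR1, against 17 in each with every plate. The causes were not tested. An upper-quartile factor at the 10-UMI gates was not run, since the factor was infinite. No paired analysis was possible because replicate numbers follow accession order and pair no mice. Few cells and genes with many zeros limit every per-plate value.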
